A study of Sus scrofa with 18 samples.

Results

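The 10 genes described here encode the precursors of hypothalamic neuropeptides: POMC, AGRP, TRH, CRH, GHRH, GNRH1, OXT, AVP, HCRT and PMCH. They were taken from the deposited gene-wise counts by gene name, and 9 of them had a row among the 31908 genes of the table. No row carried the name POMC. RNA-Seq had been performed on 18 whole fetal brains of domestic pigs, 3 females and 3 males on each of gestation days (GD) 45, 60 and 90. The dams were Landrace by Large White gilts bred to 1 commercial sire line, and no dam or fetus was treated. The sexes of a day came in 3 pairs of 1 female and 1 male with the same recorded litter size. The labels name no dam, so that these pairs were littermates was inferred from the day and the litter size, and fetuses are named below by sex, day and piglet number as the replicate. The labels also give the sex of the neighbouring fetus on the medial and on the lateral side, which was not in the model. Libraries held between 15118843 and 19729783 gene counts (median 16413097), and 4 of them were the sum of 2 runs. Brain weights ran from 0.665 to 1.86 on GD45 (median 1.55), from 2.55 to 3.45 on GD60 (median 2.87) and from 17.6 to 20.5 on GD90 (median 19.1), in the unit the labels give as mg, which may be an error for g. Male GD45 replicate 17 stood apart, with a median absolute deviation from its group of 0.373 in log2 CPM, where the other libraries were between 0.083 and 0.246. Results that rest on it are given with and without it.

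Hypothalamic neuropeptides are made in small groups of neurons as longer precursors that are cut at pairs of basic residues inside secretory granules. Oxytocin and vasopressin are carried by axons to the posterior pituitary and released into blood. CRH, TRH, GHRH and GnRH are released into the portal vessels and act on the anterior pituitary, which answers with corticotropin, thyrotropin, growth hormone and the gonadotropins. Products of POMC and AGRP act against each other on melanocortin receptors in the control of feeding, while orexins, from HCRT, and melanin-concentrating hormone, from PMCH, come from neurons of the lateral hypothalamus that act on arousal and feeding. GnRH neurons are born outside the brain, in the nasal placode, and migrate into it before birth. In RNA of a whole brain, fewer cells of a type and less RNA per cell cannot be told apart, and a level is always relative to the RNA of all other regions.

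The stretches that encode the mature peptides were read from the Sscrofa11.1 genome at the RefSeq coding exons of the same build. Oxytocin and vasopressin are shown because their genes gave the largest log2 differences between the sexes among the members tested. Both are 9 residues long, and the 5 of 27 bases that differ between the stretches are in capitals. They change 4 codons and 2 residues, at positions 3 and 8 counted from the first residue of the peptide, and codon 8 of the AVP stretch encodes lysine, the residue known at that place in pig vasopressin. AVP is at chr17:32581230-32583427 on the plus strand and OXT at chr17:32605588-32606483 on the minus strand, and in each the stretch lies in exon 1.
AVP, chr17:32581335-32581361, plus strand: tgctacTtccagaactgcccGAAgggA
OXT, chr17:32606366-32606392, minus strand: tgctacAtccagaactgcccCCTgggC
The GnRH stretch is shown because GNRH1 had the largest fall among the 6 genes tested. It lies in exon 1 of GNRH1, the exon that held 64 of the exon counts of the gene.
GNRH1, chr14:9447423-9447452, minus strand: caacactggtcctatggattgcgccctgga
The orexin-A and melanin-concentrating hormone stretches are shown because of the exons they lie in: counts of HCRT differed between its exons, and PMCH was listed at 0 with its exons under those of another gene. The orexin-A stretch lies in exon 10 of HCRT. The PMCH stretch joins 10 bases of 1 coding exon (chr5:82019735-82019744) to 47 bases of the next (chr5:82020028-82020074).
HCRT, chr12:20589586-20589684, plus strand: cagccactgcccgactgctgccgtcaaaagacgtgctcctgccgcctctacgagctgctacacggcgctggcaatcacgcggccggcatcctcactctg
PMCH, chr5:82019735-82020074 without the intron, plus strand: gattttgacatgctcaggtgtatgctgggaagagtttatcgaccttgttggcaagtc
The TRH precursor holds 6 copies of the unit Gln-His-Pro-Gly before a pair of basic residues, and the first of them, in exon 3, reads as follows.
TRH, chr13:69365000-69365017, plus strand: cagcatccaggcaaaagg

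Levels were compared between genes as FPKM, that is, per length of exons and per library size. Over the 18 libraries, CRH had a median of 5.66 FPKM (2.93 to 13.6), TRH of 4.77 (3.17 to 9.10), OXT of 4.53 (0.782 to 13.8) and AVP of 4.30 (1.93 to 9.76). The ranges of these 4 genes overlapped, so their order was not resolved. GNRH1 followed with a median of 1.12 FPKM (0.154 to 4.26) and HCRT with 0.928 (0.628 to 1.85), again with overlapping ranges. Of the exon length used for HCRT, 49.9% lies in exons of GHDC, part of it in exons without counts. Its FPKM may thus be too low for the orexin gene, and its place beside GNRH1 was not resolved. GHRH had a median of 0.291 FPKM (0 to 2.23) and AGRP of 0.106 (0 to 0.596). PMCH was listed at 0 in all 18 libraries. All values by library below are CPM, counts scaled by library size with TMM factors, and are comparable between libraries for 1 gene only.

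**Figure D1:**
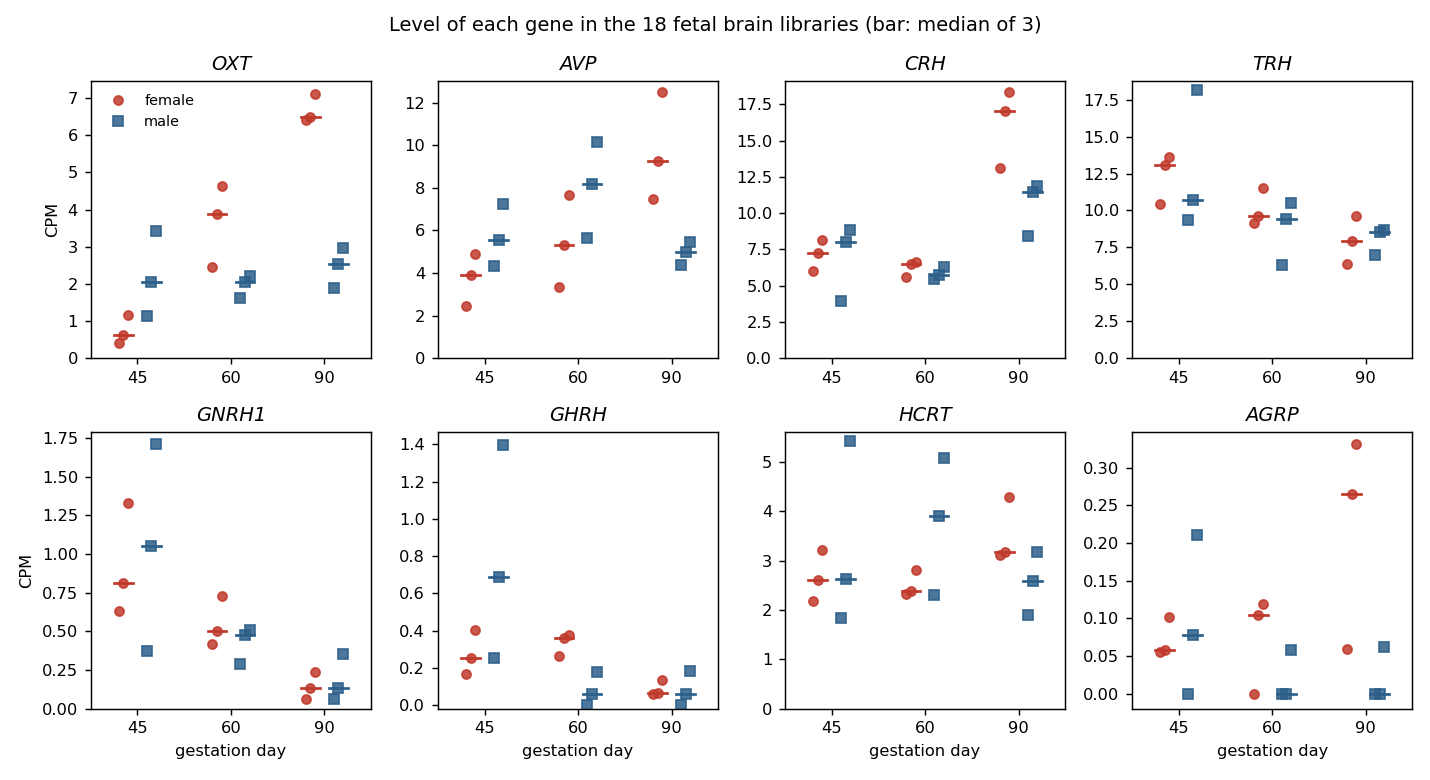
Level of 8 neuropeptide genes in each of the 18 fetal brain libraries, in CPM (y axis, a scale of its own for each gene) by gestation day (x axis), with females as red circles, males as blue squares and a bar at the median of 3. Female OXT lay between 0.403 and 1.17 CPM on GD45 and between 6.41 and 7.13 on GD90, while the GD90 males lay between 1.90 and 2.96.

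TRH, CRH, GNRH1, OXT, AVP and HCRT passed the filter on low counts and were among the 16325 genes tested with edgeR's quasi-likelihood test, with p-values adjusted over all of them (Benjamini-Hochberg, adjusted p under 0.05). AGRP, GHRH and PMCH did not pass it. From GD45 to GD60, 1 of the 6 was called in females (OXT, higher), where 7.22% of all genes tested were called, and none was called in males, where 5.61% were. From GD60 to GD90, 1 was called in females and 1 in males (CRH, higher in each), beside 27.1% and 34.5% of all genes. Over both sexes, 1 was called for GD60 against GD45 (OXT, higher), beside 16.7% of all genes, and 2 for GD90 against GD60 (CRH higher, GNRH1 lower), beside 42.4%. For GD90 against GD45, 5 of the 6 were called, 3 higher (OXT, CRH, AVP) and 2 lower (GNRH1, TRH), beside 57.5% of all genes, 28.3% higher and 29.3% lower. The median log2 fold change of the 6 genes was 0.31 for this comparison, against -0.03 for all genes tested.

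Between the sexes, edgeR's quasi-likelihood test over the 18 libraries called no member on GD45, GD60 or GD90, where 0.0919%, 0.098% and 0.098% of all genes were called. On GD90 each female had a male as medial neighbour and each male a female. On GD60 each female had a male as lateral neighbour and each male a female. Fetal sex and the sex of the medial neighbour on GD90, or of the lateral neighbour on GD60, therefore cannot be told apart, for any gene. The interactions of sex and day below use these days and carry the same limit. At an unadjusted p under 0.05, the quasi-likelihood test named OXT on GD45 and on GD60 and OXT, AVP and CRH on GD90, beside 2.59%, 4.80% and 13.6% of all genes. DESeq2 and edgeR's likelihood ratio test each called OXT on GD90, beside 0.319% and 0.257% of all genes, and no member on the other days. For the interaction of sex and day, no gene of the table passed the adjusted threshold in either period (0% of all genes). At an unadjusted p under 0.05 it named OXT from GD45 to GD60, beside 2.04% of all genes, and AVP from GD60 to GD90, beside 19.8%, and neither DESeq2 nor the likelihood ratio test called a member for either interaction.

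**Figure D2:**
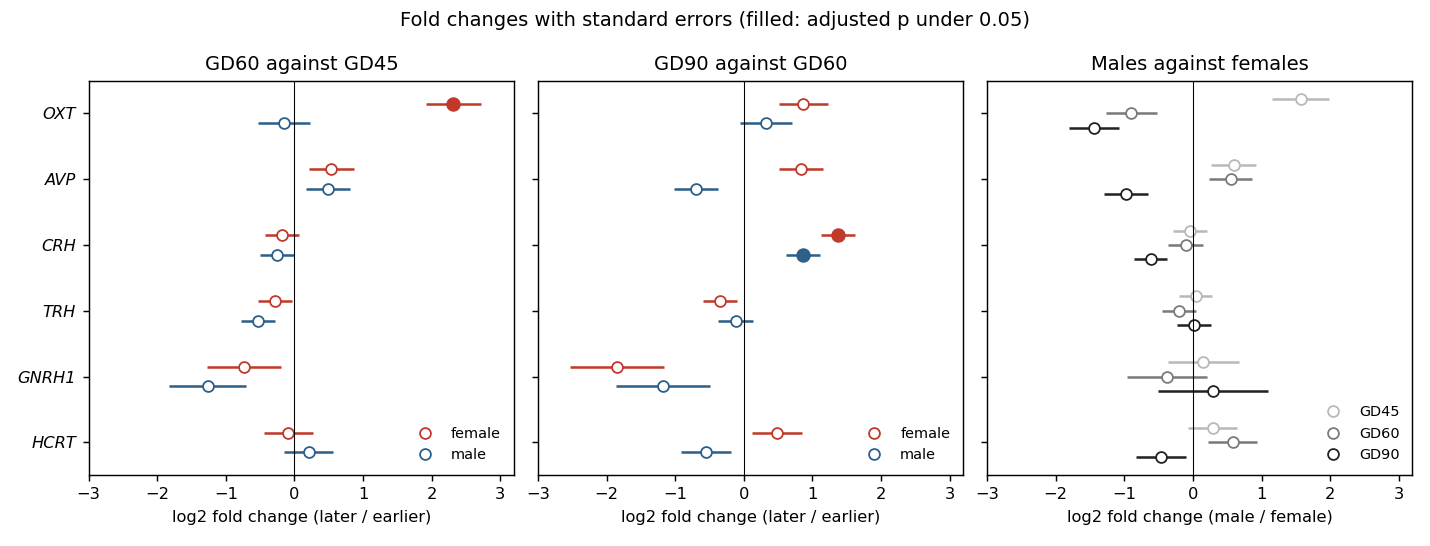
Log2 fold change with its standard error (bars) of the 6 genes tested, for each period in females (red) and males (blue), and for males against females on each day (grey to black), with filled circles for an adjusted p under 0.05. OXT in females from GD45 to GD60 (2.32) and CRH in both sexes from GD60 to GD90 (1.37 and 0.87) were the filled points.

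OXT, which encodes oxytocin and its carrier neurophysin I, rose in the female brain. The females had 0.612, 1.17 and 0.403 CPM on GD45, 3.89, 4.64 and 2.45 on GD60, and 7.13, 6.49 and 6.41 on GD90 (12, 21 and 7 counts on GD45 and 119, 98 and 97 on GD90). All 3 females of each later day lay above all 3 of the day before. The share of all genes whose groups separate without overlap was not counted, here or below. The rise from GD45 to GD60 was 2.32 ± 0.41 (SE) in log2, or 4.98-fold, with an adjusted p of 0.00266 by edgeR's quasi-likelihood test. The further difference from GD60 to GD90 in females (0.87 ± 0.36) did not pass it, with an adjusted p of 0.0804. The males had 2.06, 1.13 and 3.42 CPM on GD45, 1.61, 2.21 and 2.05 on GD60, and 2.52, 2.96 and 1.90 on GD90. Their 3 days overlapped, and the log2 differences were -0.15 ± 0.38 and 0.33 ± 0.38. Over both sexes OXT was 3.21-fold higher on GD90 than on GD45 (log2 1.68 ± 0.28, adjusted p = 6.59e-05 by edgeR). The exact two-sided permutation test of 6 libraries against 6 gave an unadjusted p = 0.0152. Without male GD45 replicate 17 the log2 value was 1.89 (adjusted p = 1.04e-05). The permutation test, here and below, takes the libraries of a day as independent, which inferred littermates need not be. Its p-values are printed without adjustment for the number of members and day pairs tested.

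The order of the sexes for OXT on GD45 was the opposite of that on GD90. On GD45 the males were higher by 1.57 ± 0.41 in log2 (unadjusted p = 0.00149, adjusted p = 0.995 by edgeR), and the ranges overlapped, at 1.13 to 3.42 CPM in males and 0.403 to 1.17 in females. The highest of the 3 males was male GD45 replicate 17, and without it the difference was 1.13 ± 0.41 (unadjusted p = 0.0135, adjusted p = 0.916 by edgeR). On GD60, where the sex of the lateral neighbour differed between the groups too, the males were lower by a log2 difference of -0.90 ± 0.37 (adjusted p = 0.779). On GD90 no male overlapped a female, and the male level was 0.37 times the female one (log2 -1.44 ± 0.37, unadjusted p = 0.00111, adjusted p = 0.342). As said above, the sex of the medial neighbour differed between these groups too. The call on GD90 turned on the fit. The adjusted p was 0.0375 with DESeq2, 0.0404 with the likelihood ratio test, 0.0452 with the GD90 libraries alone (where 6.88% of all genes were called) and 0.0188 without the 3 libraries with pituitary transcripts described below (where 9.38% were). Without male GD45 replicate 17 it was 0.0641. The change from GD45 to GD60 differed between the sexes by -2.47 ± 0.56 in log2 (males minus females, unadjusted p = 0.000381, adjusted p = 0.9999), and no alternative called it. Without male GD45 replicate 17 that difference was -2.04 ± 0.53 (adjusted p = 0.290). By exon, the female GD90 libraries summed to 8, 115 and 35 counts on exons 1, 2 and 3 and the male GD90 libraries to 2, 49 and 16, so the females were higher on each exon. Exon 1, with the oxytocin stretch printed above, held 19 of the 429 exon counts of OXT. Exon counts made up only 50.0% of the 858 gene counts of OXT, so counts by exon are incomplete and exon shares were not read.

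AVP, the neighbour of OXT on chromosome 17, encodes vasopressin with neurophysin II. In females it was at 4.89, 3.89 and 2.47 CPM on GD45, 3.35, 5.33 and 7.67 on GD60, and 9.28, 12.5 and 7.47 on GD90. In males it was at 4.32, 5.57 and 7.22 CPM on GD45, 5.65, 10.2 and 8.19 on GD60, and 5.46, 4.37 and 4.98 on GD90. The median was highest on GD60 in males and on GD90 in females, and all 3 GD90 females lay above all 3 GD90 males. Over both sexes AVP was 1.50-fold higher on GD90 than on GD45 (log2 0.59 ± 0.23, adjusted p = 0.0366 by edgeR), while the exact permutation test gave p = 0.0801. This call was lost when 1 of 8 libraries was left out, with an adjusted p of 0.0564 without female GD45 replicate 13, 0.096 without female GD45 replicate 18, 0.0548 without female GD90 replicate 2, 0.103 without female GD90 replicate 7, 0.0889 when male GD45 replicate 11 was dropped, 0.0573 without male GD45 replicate 14, 0.0743 without male GD90 replicate 1 and 0.0597 without male GD90 replicate 10.

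On GD90 the male AVP level was 0.507 times the female one (log2 -0.98 ± 0.32, unadjusted p = 0.00719, adjusted p = 0.350 by edgeR). With the GD90 libraries alone the adjusted p was 0.0461, where 6.88% of all genes were called. The change of AVP from GD60 to GD90 was 0.84 ± 0.32 in females and -0.69 ± 0.32 in males in log2, neither past the adjusted threshold (0.0612 and 0.103). The difference between these changes was -1.53 ± 0.45 (unadjusted p = 0.00358, adjusted p = 0.183 by edgeR), and its adjusted p was 0.0309 without male GD45 replicate 17, 0.0476 with the libraries of GD60 and GD90 alone and 0.00789 without the 3 libraries with pituitary transcripts. Of all genes, 13.3%, 7.14% and 26.3% were called for this difference in those fits, where the fit over the 18 libraries called 0%.

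CRH, the hormone that starts the stress axis by driving corticotropin release, rose late in both sexes. On GD45 the females had 7.24, 8.16 and 5.98 CPM and the males 8.85, 3.95 and 8.00. On GD60 the females had 5.62, 6.52 and 6.63 and the males 5.71, 6.27 and 5.44. On GD90 the females had 17.1, 13.1 and 18.4 and the males 11.9, 8.43 and 11.5. All 6 libraries of GD90 lay above all 6 of GD60, days between which edgeR called 42.4% of all genes over both sexes. The exact two-sided permutation test gave p = 0.00216 for CRH, the smallest it can give with 6 libraries a day. These libraries came as inferred pairs of littermates, which the test takes as independent, so this p-value may be too small. From GD60 to GD90 CRH rose 2.58-fold in females (log2 1.37 ± 0.25, adjusted p = 0.000579 by edgeR) and 1.82-fold in males (log2 0.87 ± 0.25, adjusted p = 0.0130). The male call was lost without male GD60 replicate 16 (log2 0.82, adjusted p = 0.051). On GD90 the 3 females lay above the 3 males, with a log2 difference of -0.61 ± 0.24 (unadjusted p = 0.0211, adjusted p = 0.350), and the interaction of sex and day had an adjusted p of 0.388. From GD45 to GD60 the CRH difference over both sexes was -0.22 ± 0.18 in log2 (adjusted p = 0.429).

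TRH, which drives thyrotropin release, was lower on GD90. Its 6 libraries ran from 9.33 to 18.2 CPM on GD45 (median 11.9), from 6.33 to 11.5 on GD60 (median 9.53) and from 6.35 to 9.64 on GD90 (median 8.25). The highest of all was male GD45 replicate 17, and GD45 and GD90 overlapped. TRH fell by 0.64 on the log2 scale from GD45 to GD90 over both sexes (SE 0.18, adjusted p = 0.00523 by edgeR; exact permutation p = 0.00433), and without male GD45 replicate 17 by 0.48 (adjusted p = 0.0112). The steps between neighbouring days did not pass the test, at -0.41 ± 0.17 (adjusted p = 0.121) and -0.23 ± 0.18 (adjusted p = 0.317). Between males and females the TRH difference stayed within -0.21 and 0.04 in log2 on the 3 days.

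GNRH1, the top of the reproductive axis, had the largest fall of the 6 genes tested. The females had 16, 24 and 11 counts on GD45, 7, 8 and 14 on GD60, and 4, 2 and 1 on GD90, and the males had 20, 6 and 22, then 5, 8 and 8, then 6, 1 and 2. As CPM, GD45 ran from 0.376 to 1.71 (median 0.935), GD60 from 0.288 to 0.731 (median 0.490) and GD90 from 0.0616 to 0.352 (median 0.132). All 6 libraries of GD45 lay above all 6 of GD90, days between which edgeR called 57.5% of all genes over both sexes. The level on GD90 was 0.175 times that on GD45 (log2 -2.51 ± 0.46, adjusted p = 0.00018 by edgeR; exact permutation p = 0.00216, the smallest possible), and without male GD45 replicate 17 the log2 value was -2.27 (adjusted p = 0.000406). From GD60 to GD90 GNRH1 fell by 1.51 on the log2 scale (SE 0.49, adjusted p = 0.0192), while -1.001 ± 0.39 from GD45 to GD60 did not pass (adjusted p = 0.0916). GNRH1 met the filter on low counts mainly through its GD45 libraries, where it was high. Among the libraries of GD60 and GD90 alone it did not meet the filter and was not tested. Its entry into the fits thus depended on the day on which it was high, so its calls under the alternatives are not separate support for a fall. The GD90 libraries held 16 GNRH1 counts in all, and the counting error of each is wide.

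GHRH, which drives growth hormone release, was close to the limit of detection. It had 50 counts over the 6 libraries of GD45, 21 over those of GD60 and 8 over those of GD90. On GD45 the females held 5, 3 and 7 counts and the males 13, 4 and 18. On GD60 the females held 6, 6 and 5 and the males 1, 3 and 0, and on GD90 no library held more than 3 counts, the limit that a count of 0 allows. The exact permutation test on log2 CPM gave p = 0.00433 for GD90 against GD45 (-1.47) and p = 0.106 for GD60 against GD45 (-0.91), and GD45 and GD90 overlapped. GHRH was below the filter of the model over all genes. It entered 17 of the alternatives, among them the fit without a filter on low counts. All 17 had it lower on GD90 than on GD45, with adjusted p between 0.0013 and 0.0129 by edgeR. Of all genes, 35.5% were called without the filter, and 52.8% to 58.3% in the others, which each left out 1 library. GHRH did not pass the filter without male GD45 replicate 11 or male GD45 replicate 17, the libraries with the most GHRH counts. Entry thus depended on libraries of the day on which it was high, so these calls are not separate support for a fall.

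HCRT, the orexin precursor, passed the test in no comparison. Its libraries ran from 1.84 to 5.44 CPM on GD45 (median 2.62), 2.31 to 5.08 on GD60 (median 2.60) and 1.90 to 4.30 on GD90 (median 3.14), with all 3 days overlapping. The log2 difference of GD90 against GD45 was 0.02 ± 0.26, with an approximate 95% interval from -0.48 to 0.53. The highest library was male GD45 replicate 17, and without it the difference was 0.29 ± 0.22 (adjusted p = 0.280 by edgeR). For GD60 against GD45 in males, leaving it out moved the difference from 0.20 ± 0.36 to 0.74 ± 0.34 (adjusted p = 0.182). The counts of the deposited HCRT model are not all of the orexin gene. The deposited model (chr12:20581022-20589988, plus strand) has 10 exons and 2935 exon bases, and 49.9% of those bases lie in exons of GHDC on the same strand. The RefSeq HCRT gene covers the last 2 exons, and these held 527 of the 887 exon counts (59.4%), 497 of them on exon 10 with the orexin-A stretch. The 4 exons that lie fully inside GHDC exons held 0 counts. When HCRT was counted on its last 2 exons, an alternative chosen after the data were seen, the difference of GD90 against GD45 was 0.18 ± 0.38 and no comparison passed the test.

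AGRP, an antagonist of melanocortin receptors made in the arcuate nucleus, had 25 counts in all, 9 on GD45, 5 on GD60 and 11 on GD90, in 12 of the 18 libraries. The highest was 0.331 CPM, in a GD90 female, and a difference between days was not detectable at this depth (exact permutation p = 0.797 for GD90 against GD45). A count of 0 allows up to 3 counts, or 0.152 to 0.198 CPM. PMCH was listed at 0 in each library. Of its 1535 exon bases, 97.7% lie under exons of PARPBP on the opposite strand, which had 306 counts, and both pieces of the melanin-concentrating hormone stretch lie in that overlap. With so few bases of its own, its 0 was not read as a limit on its level.

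**Figure D3:**
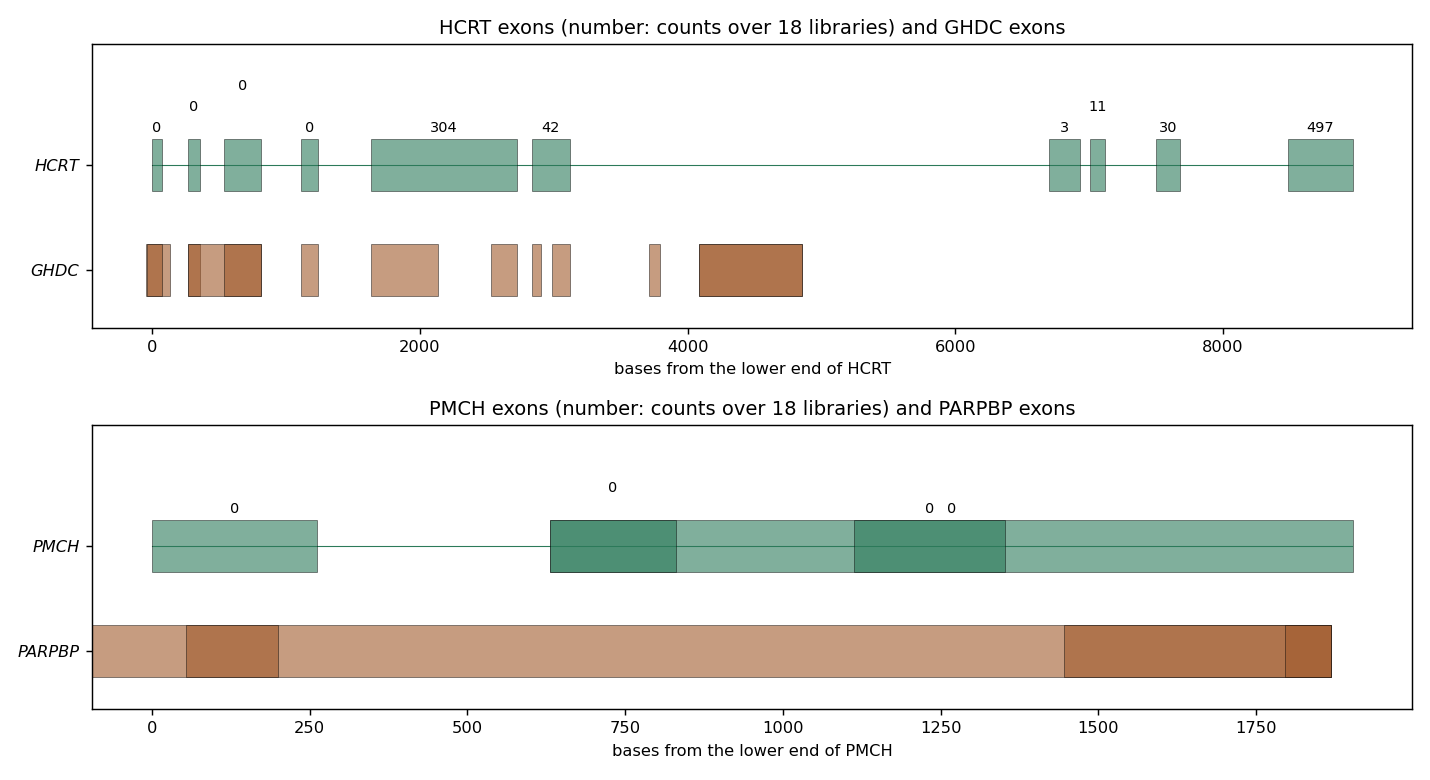
Exons of the deposited HCRT and PMCH models (green) with those of the overlapping genes GHDC and PARPBP (brown), by distance in bases from the lower end of the model (x axis), with the counts of each exon over 18 libraries above it. The exons of HCRT and PMCH that lie under another gene held 0 counts where the overlap was complete, and 497 counts fell on the last exon of HCRT.

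POMC had no row of its own, but the RefSeq POMC gene lies at chr3:113661712-113668558, inside 1 unnamed gene of the table (chr3:113661004-113670418, plus strand, 11 exons). All of the 1267 exon bases of RefSeq POMC are under exons of that gene, which are 37.7% of its own exon bases, so its counts need not all be POMC. It held 124 to 676 counts a library. On GD45 the females had 14.6, 25.3 and 11.96 CPM and the males 10.9, 10.5 and 52.5. On GD60 the females had 9.63, 7.77 and 19.4 and the males 11.5, 13.2 and 15.5, and on GD90 the females had 17.5, 9.74 and 13.4 and the males 9.39, 10.3 and 8.85. The 3 highest were male GD45 replicate 17, female GD45 replicate 13 and female GD60 replicate 15.

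POMC is also the hormone gene of the corticotrophs of the anterior pituitary, so pituitary markers were read in the same libraries. GH1, growth hormone, had 105, 400 and 1146 counts in those same 3 libraries, 1 count in female GD45 replicate 18 and 0 in the other 14. CGA, the shared subunit of the glycoprotein hormones, had 39, 78 and 51 counts in the 3 libraries and 0 to 11 elsewhere. Of 10 anterior pituitary markers, 9 had a row, and FSHB was at 0 in all libraries. Their summed level was 18.1, 31.1 and 64.7 CPM in the 3 libraries and 0.479 to 3.11 CPM in the other 15. The unnamed gene was lower on GD90 than on GD45 over both sexes (log2 -0.85 ± 0.36, adjusted p = 0.0497 by edgeR). This call held in 12 of 28 alternatives. It was lost when 3 libraries had to exceed 1 CPM (adjusted p = 0.0504), with only the libraries compared (0.0714) and without female GD90 replicate 7 (0.108), among others. Without the 3 libraries, an alternative chosen after the data were seen, the difference was -0.08 ± 0.15 (adjusted p = 0.666), and without male GD45 replicate 17 alone it was -0.27 ± 0.23 (adjusted p = 0.333). The calls of OXT, CRH, AVP, TRH and GNRH1 for GD90 against GD45 all remained without the 3 libraries, at 2.14, 0.99, 0.69, -0.44 and -2.09 in log2.

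**Figure D4:**
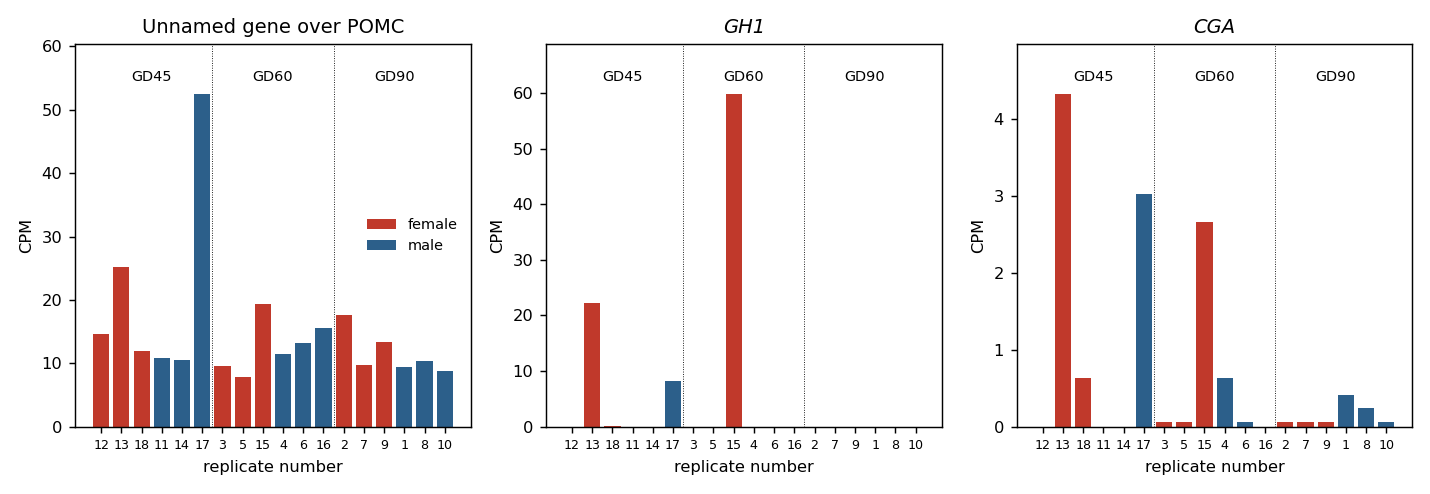
CPM (y axis) of the unnamed gene over POMC and of the anterior pituitary markers GH1 and CGA in each library (x axis, replicate number within the day), females in red and males in blue. The 3 libraries highest for the unnamed gene (19.4, 25.3 and 52.5 CPM) were the only ones with more than 1 count of GH1.

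The receptors of these peptides mostly went up between GD45 and GD90. Of 15 listed, 11 were tested and 7 rose, none fell and 4 did not pass the test, where 28.3% of all genes rose and 29.3% fell, with a median of 1.13 in log2 where all genes had -0.03. CRHR1, the main receptor of CRH in brain, rose from a median of 4.65 to 46.7 CPM (log2 3.24 ± 0.15, adjusted p = 3.87e-11 by edgeR), with a GD60 median of 13.9. MCHR1, the receptor of the PMCH product, rose from 0.347 to 2.60 CPM (log2 2.72 ± 0.32, adjusted p = 1.83e-06). The oxytocin receptor OXTR (1.16), the vasopressin receptor AVPR1A (1.58), the orexin receptor HCRTR1 (1.91), CRHR2 (1.13) and TRHR (0.94) passed the test too, while HCRTR2 was at -0.14 (adjusted p = 0.282).

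Genes for cutting peptide precursors and for secretory granules showed the same direction. All 12 were tested, and 11 rose, none fell and 1 did not pass, with a median log2 fold change of 1.32. Of all genes, 28.3% rose and 29.3% fell. PCSK1, a convertase that cuts at pairs of basic residues, rose from a median of 8.95 CPM on GD45 to 35.8 on GD90, and was at 7.46 on GD60 (log2 2.18 ± 0.20, adjusted p = 1.21e-07 by edgeR). SCG2, a granule protein, rose from 103 to 328 CPM (log2 1.65 ± 0.12). SCG5 was the 1 that did not pass (0.08, adjusted p = 0.659).

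The transcription factors of hypothalamic development went down. Of 16 listed, 13 were tested, and 11 fell, 1 rose and 1 did not pass, with a median of -2.25 in log2. The shares over all genes were 29.3% lower and 28.3% higher. LHX9 fell by 2.58 (from a median of 44.5 CPM to 7.48) and FEZF1 by 2.54 (from 6.10 to 1.09), with adjusted p of 2.08e-08 and 5.42e-09 by edgeR. OTP and SIM1, which the neurons of OXT, AVP, CRH and TRH need to form, fell by 1.87 and 1.45 on the log2 scale, and NKX2-1, the marker of the ventral hypothalamus, by 2.39. TBX3 rose (0.68 ± 0.21, adjusted p = 0.0099).

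Other hypothalamic peptide genes were divided. Of 20 listed, 15 were tested, and 7 rose, 4 fell and 4 did not pass, with a median of 0.43 in log2. All genes tested were divided too, with 57.5% called, 28.3% higher and 29.3% lower. VIP, known from the suprachiasmatic nucleus and from cortical interneurons, rose from a median of 0.320 to 14.6 CPM (log2 5.37 ± 0.29, adjusted p = 1.99e-10 by edgeR), and CARTPT from 1.48 to 8.98 (log2 2.73 ± 0.27). NMU fell by 1.26 and TAC3, the neurokinin B precursor, by 1.10 on the log2 scale. Many genes of these lists are also expressed outside the hypothalamus. Of 10 markers of brain cell types, 9 were tested, and 7 rose and 1 fell from GD45 to GD90, beside the same shares of all genes. MBP, a myelin gene, was at 6.03 and GFAP, of astrocytes, at 4.48 in log2. The 1 that fell was PAX6, a gene of neural progenitors (-1.51), and the neuronal tubulin TUBB3 did not pass the test (-0.30, adjusted p = 0.0862). Their summed level was 5650 to 8511 CPM on GD45 and 8913 to 12906 on GD90. On GD45 that sum was mostly TUBB3 and the neuronal gene STMN2, with medians of 3833 and 2046 CPM (3358 and 3002 on GD90). Their part in the changes of the peptide genes was not tested.

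**Figure D5:**
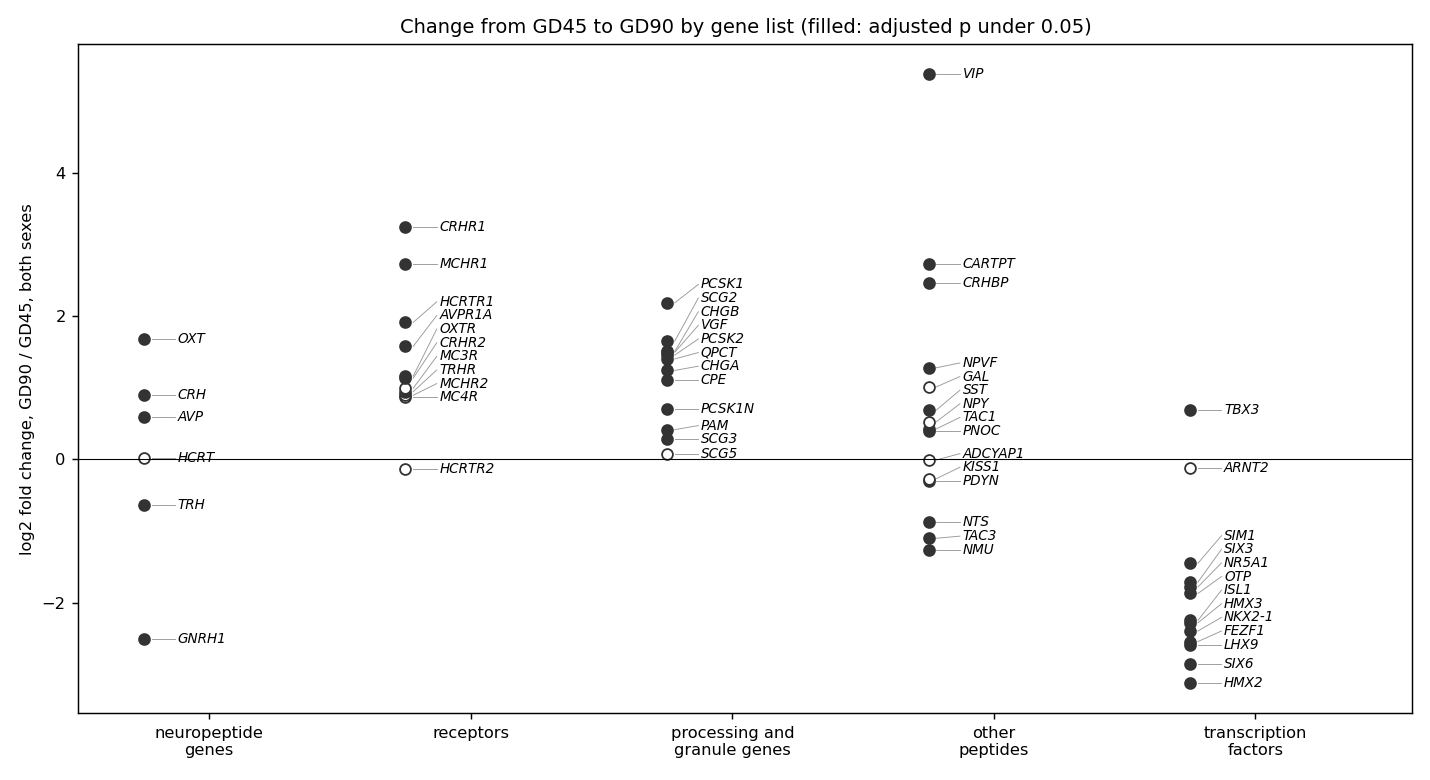
Log2 fold change of GD90 against GD45 over both sexes (y axis) of each gene tested in 5 lists (x axis), with filled circles for an adjusted p under 0.05. The transcription factors lay between -3.12 and 0.68, the processing and granule genes between 0.08 and 2.18, and the neuropeptide genes between GNRH1 at -2.51 and OXT at 1.68.

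As a description, the genes most like each member in log2 CPM over the 18 libraries were read by Spearman's rho, among genes with a symbol and a mean of at least 1 CPM. OXT was closest to TUBA4A (0.845), ADRA2C (0.818) and LDHD (0.814). AVP was closest to FABP4 (0.868), TFE3 (0.860) and PRR13 (0.841), and CRH to RTKN (0.928), SLC25A5 (0.924) and IFITM10 (0.901). TRH was closest to TAC3 (0.905), TOX2 (0.891) and HS3ST3B1 (0.878), GNRH1 to ANGPTL4 (0.948), PPIL1 (0.942) and CRABP1 (0.938), and HCRT to ACTR1A (0.899), NAA60 (0.893) and NOC4L (0.891). The libraries share day, sex and depth, and nothing is read from the order.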

How the data were processed

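The authors checked the paired-end reads with FastQC, trimmed them with Trimmomatic, aligned them with HISAT2 to Sscrofa11.1, and used featureCounts with Ensembl gene models. Options for strand and for shared reads are not given in the sources used here. The deposited gene and exon tables hold raw counts, without normalization, and the 22 columns were summed to 18 libraries. The transcript table was not used.

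CPM, FPKM (from the deposited gene lengths) and fits were computed here from the gene counts. edgeR 4.0.16 in R 4.3.3 kept 16325 genes (filterByExpr, 99.9% of counts), scaled them by TMM and fitted 6 groups of sex and day over 18 libraries. Contrasts used the quasi-likelihood F test with Benjamini-Hochberg adjustment over all genes, at 0.05, and the script was tested on simulated data. Exact two-sided permutation tests compared mean log2 CPM (prior count of 2), 6 libraries against 6. They ignored the inferred litters, so their p-values may be too small where littermates were alike. These p-values are printed without adjustment over members and day pairs. The alternatives were DESeq2 1.42.0, a likelihood ratio test, other filters and scaling, fewer libraries, litter (inferred from the day and the recorded litter size) as a block and littermates summed. A paired edgeR analysis is named in the study's methods without its pairs, so the main fit had none. With 3 fetuses a group, p-values measure the spread between fetuses. Reads carried no molecular identifiers, so counting limits cover counting error only.

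The members and lists were chosen with earlier results of these data known. From each list, up to 2 genes that rose most and 2 that fell most from GD45 to GD90, with a mean of at least 1 CPM, were named by rule. OXTR, AVPR1A, HCRTR1, CRHR2, TRHR, HCRTR2, SCG5, OTP, SIM1 and NKX2-1 were named after their values were seen. Gene names not in the file came from a table of gene names (772 genes). Sequences are from the RefSeq assembly of the same build, read with Biopython.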

Additional observations from a re-analysis of the deposited data

How the results depend on the processing

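The calls of OXT, CRH, GNRH1 and TRH kept their direction and passed the threshold under each alternative that could be fitted, except CRH from GD60 to GD90 in males without male GD60 replicate 16, and AVP on GD90 against GD45 as given above. GNRH1 from GD60 to GD90 could not be fitted with only the libraries compared, where it did not pass the filter. GNRH1 entered the fits mainly through its GD45 libraries, so its calls under the alternatives are not separate support for a fall. Log2 fold changes for GD90 against GD45 ran from 1.52 to 2.14 for OXT, 0.75 to 1.01 for CRH, 0.47 to 0.70 for AVP, -0.73 to -0.44 for TRH and -2.96 to -2.09 for GNRH1. Shares in parentheses are of all genes tested under the same alternative. The count of members called from GD60 to GD90 in females rose from 1 to 3 with DESeq2 (30.4%), 4 with the likelihood ratio test (29.4%), 2 without TMM factors (27.5%), 2 with only the libraries compared (30.1%), 4 without the GD45 litter of 8 (35.7%) and 2 without the libraries with over 100 GH1 counts (37.2%), the last 2 chosen after the data were seen. In males it was 2 with only the libraries compared (47.4%). On GD90 males against females gave 1 with DESeq2 (0.319%), 1 with the likelihood ratio test (0.257%), 2 with only the libraries compared (6.88%) and 2 without the GH1 libraries (9.38%). The interaction from GD60 to GD90 gave 1 (AVP) with only the libraries compared (7.14%), without the GD45 litter of 8 (12.7%) and without the GH1 libraries (26.3%). The cause was not tested. Leaving out each library gave 1 to 4 members for GD90 against GD60 in females (4 without male GD45 replicate 17, 3 without male GD45 replicate 14, 2 without female GD60 replicate 15 or male GD90 replicate 1, with 35.9%, 28.0%, 25.9% and 25.6% of all genes), 0 to 1 in males (23.0% to 44.3%), 0 to 1 for GD60 against GD45 in males (GHRH, which then passed the filter, 2.87% to 9.31%), 1 to 3 over both sexes (3 without male GD45 replicate 14, 18.0%), 2 to 3 for GD90 against GD60 (37.1% to 49.5%) and 4 to 6 for GD90 against GD45 (52.8% to 58.5%) over both sexes, and 0 to 1 for the interaction from GD60 to GD90 (1 without male GD45 replicate 17, 13.3%). GHRH is among the members counted only where it passed the filter, with the limit given above. The study names a paired edgeR analysis but not the pairs, and the labels name no dam, so litters were inferred from the day and the litter size. Deviations of the fetuses of an inferred litter correlated between -0.093 and 0.424 across genes, and the 18 other female-male pairs of a day between -0.412 and 0.201. Of the 9 inferred litters, those at 0.335, 0.424 and 0.343 lay above all other pairs. With litter as a replicate block, 0 members were called for each sex comparison and interaction. With littermates summed the counts over both sexes were 1, 3 and 5 (11.6%, 37.4% and 53.3%). Genes under about 3 counts a library (AGRP, GHRH and GNRH1 on GD90) are limited by depth.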
